A study of Homo sapiens with 48 samples.

Results

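The zinc finger genes with symbols from ZNF500 to ZNF899 were described in the colorectal cancer line SW480 under depletion of a subunit of eIF2B, the factor that recharges eIF2 with GTP for translation initiation. Members were chosen by symbol alone, as all genes of that numbering listed both for ribosome-protected fragments (RPFs) and for total cytoplasmic RNA. This gave 136 genes of the 10836 listed for both. Of the symbols in this range, 61 were listed for total RNA only and 1 for RPFs only, and these were left out. SW480 carries a mutated APC. Cells carried a doxycycline-inducible shRNA, which was a non-targeting control (shCTRL), shEIF2B1 against the eIF2Bα subunit or shEIF2B4 against the eIF2Bδ subunit. They were grown for 5 days with 1 µg/ml doxycycline (+DOX) or with DMSO (-DOX), in 4 replicates made in separate weeks, so that 24 lysates gave 24 RPF and 24 total RNA libraries. Each knockdown rests on 1 shRNA construct, and all cells, shCTRL included, carried an inducible shRNA.

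C2H2 zinc finger proteins hold a zinc ion in each finger between a pair of cysteines and a pair of histidines, and arrays of such fingers read DNA sequence. Many members of this numbering also carry a KRAB domain, which recruits the corepressor TRIM28 and through it the histone methyltransferase SETDB1 to silence transposable elements and other targets. The genes multiplied by tandem duplication, above all on chromosome 19, and most are expressed at a low level in most tissues. A minority have work unrelated to KRAB repression, such as the maturation of the large ribosomal subunit (ZNF622, ZNF593).

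Chromosome 19 held 66 of the 136 members, chromosomes 1 and 16 held 11 each and chromosome 7 held 8. A coding sequence (CDS) could be taken from GENCODE release 29 on GRCh38 for 134 members, but not for ZNF567 and ZNF611. In their translations a KRAB pattern was found in 75 members, 49 of them on chromosome 19. Fingers together with KRAB were found in 61 members, fingers without KRAB in 54, KRAB without a finger in the listed transcript in 14, and neither in 5. The median number of fingers was 8.5, and the highest was 31 in ZNF646. The median GC content of the CDS was 43.5% with KRAB (36.2% to 70.2%) and 59.6% without (32.4% to 74.9%), against 52.1% over all genes. Members on chromosome 16 had a median of 64.9%, and those on chromosome 19 one of 44.0%.

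Neighbouring fingers are often joined by a conserved linker of 7 residues, with a few residues that vary between members. The linker was found in 88 members, 508 times in all. The 8 stretches below are the first linker in the CDS of the 4 largest rises and the 4 largest falls in RPFs after shEIF2B1 among the members called in that comparison, leaving out those without a linker. They show the bases of 1 conserved element in members that moved in opposite directions, and some differences between them change the residue. Capitals mark the third base of each codon, the base that most synonymous codons differ in. On GRCh38 they lie at chr1:248847935-248847955 (ZNF672, plus strand), chr19:55602686-55602706 (ZNF524, plus), chr19:55614354-55614374 (ZNF865, plus), chr19:2834271-2834291 (ZNF554, plus), chr19:52582933-52582953 (ZNF701, plus), chr19:23223147-23223167 (ZNF724, minus), chr19:53408348-53408368 (ZNF765, plus) and chr1:247037944-247037964 (ZNF670, minus), each within a coding exon.
ZNF672: caCtcGggGgaGaaAccCttC
ZNF524: caCtcGggGgaGcgCccGtaC
ZNF865: caCtcGggGgaGagGccCtaC
ZNF554: caCacGggGgaGaaAccCtaC
ZNF701: caTacTggAgaGaaAccTtaC
ZNF724: caTacTggAgaGaaAccTtaC
ZNF765: caCacTggTgaGaaAccTtaC
ZNF670: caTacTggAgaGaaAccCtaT

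In the 4 members that rose, 6 or 7 of the 7 capitals were G or C. In the 4 that fell, 2 or 3 were. ZNF701 and ZNF724, which lie far apart on chromosome 19, had the same 21 bases. Over the 88 members with the linker, a median of 42.9% of these bases were G or C, with a range from 7.14% to 100%. Near-identical stretches of this kind also limit the counting of reads. A member was taken to share sequence where a window of 28 bases, about the length of an RPF, occurred in the transcript of another listed gene. More than 20% of the windows were shared in 18 members, and for those the reads could be split between genes: among genes named below these were ZNF701 (35.2%, with ZNF888 as the main partner), ZNF724 (31.6%, ZNF91), ZNF674 (30.3%, KRBOX4), ZNF765 (29.4%, ZNF845), ZNF805 (26.6%, ZNF264) and ZNF747 (21.8%, ZNF764).

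The members were expressed at a low level, more so in RPFs than in total RNA, and the 144 genes ZNF1 to ZNF499 were similarly low. Averaged over the 24 libraries of a measure, without regard to length, the latter had medians of 4.65 in RPFs and 6.82 in total RNA. Members had 4.63 and 6.67. Levels between genes were compared per length, as the log2 value minus the log2 of the length in kb (of the CDS for RPFs, of the transcript for total RNA), in the 4 -DOX libraries of shCTRL. On this scale the median RPF level was 3.83 over 134 members against 6.55 over all genes, and 10 members lay above the latter. The median total RNA level was 5.10 against 6.38, with 24 members above. RPFs minus total RNA per length had a median of -0.995 for the members and 0.23 for all genes. The same difference was -1.45 with KRAB and -0.14 without. It rose with CDS GC content across members (Pearson's r = 0.757, n = 134) and across all genes (r = 0.594, n = 10548), both given as a description, since the genes share libraries and families.

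The highest RPF level per length was that of ZNF593, a factor in export of the large ribosomal subunit, at 10.02 ± 0.15 (SD, n = 4). ZNF706 followed at 9.48 ± 0.37 and ZNF511 at 8.42 ± 0.15. The ranges of 1 SD around ZNF593 and ZNF706 nearly met, and both stood above that of ZNF511. The lowest were ZNF594 at 1.86 ± 0.16, ZNF532, a partner of the chromatin reader ZMYND8, at 1.66 ± 0.16, and ZNF646 at 1.53 ± 0.18, and neighbours in that order did not differ beyond their spread. In total RNA per length ZNF706 was the highest at 10.41 ± 0.17, ahead of ZNF544 at 8.95 ± 0.14 and ZNF639 at 8.76 ± 0.02. ZNF516 and ZNF862 were the lowest, both at 2.26. ZNF639 stood 3rd of 134 in total RNA and 29th in RPFs, whereas ZNF579 stood 132nd in total RNA and 53rd in RPFs.

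**Figure D1:**
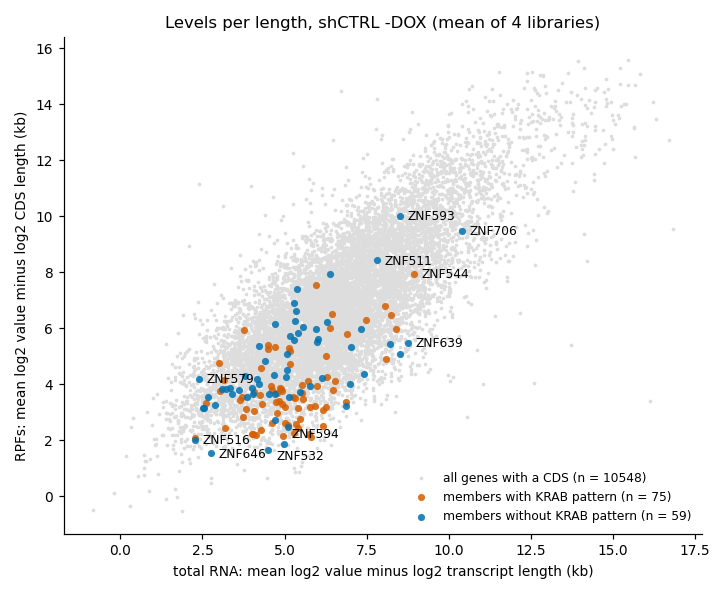
RPF level per kb of CDS (vertical axis) against total RNA level per kb of transcript (horizontal axis), both on the log2 scale, as the mean of the 4 -DOX libraries of shCTRL. Grey points are all genes with a CDS, orange points the 75 members with a KRAB pattern and blue points the 59 without. Most members lie low on both axes. RPFs minus total RNA had a median of -1.45 with KRAB and -0.14 without, not matched for total RNA level or GC content.

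A few facts of the series bear on what follows. The EIF2B1 response to shEIF2B1 was -0.53 in RPFs (limma, adjusted p = 0.0109) and -0.67 in total RNA (adjusted p = 0.0263). The EIF2B4 response to shEIF2B4 was -0.48 (adjusted p = 0.236) and -0.49 (adjusted p = 0.0634), and each target was lower in every +DOX library of its own line than in every -DOX library. Of 9 markers of colorectal epithelium 6 were listed, EPCAM, KRT8, KRT18, KRT19, CDH1 and CDX2, while CDX1, VIL1 and LGALS4 were not listed. PTPRC, COL1A1, COL1A2 and PECAM1, markers of other cell types, were not listed either. Values averaged over all genes were lower in the shEIF2B4 libraries (7.01 for RPFs, against 7.12 to 7.15 in the other lines), so levels are not compared between lines. In bulk lysates fewer cells with a transcript and less of it per cell cannot be told apart.

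The question of the first comparison was how ribosome occupancy of these genes changed when eIF2Bα was depleted. A response is the +DOX minus -DOX difference in the knockdown line less the same difference in shCTRL, on the log2 scale, and a gene was called at a Benjamini-Hochberg adjusted p below 0.1 over all genes (limma, with the week as a block). Where counts at an unadjusted p are given, shares of all genes called still use the adjusted p, so such counts and shares are not comparable. After shEIF2B1, 21 of the 136 members were called in RPFs, 11 higher and 10 lower, which is 15.4% of members beside 27.3% of all 11145 genes tested. Among all genes 12% were called higher and 15.3% lower. The median response was -0.02 for the members and -0.01 for all genes, and the members ranged from -0.77 (ZNF701) to 0.87 (ZNF672).

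ZNF672, with 14 fingers, on chromosome 1 from 248838210 to 248849517, showed the largest rise. Its log2 RPF values in shEIF2B1 were 4.65, 4.35, 4.44 and 4.07 without doxycycline and 5.38, 4.82, 5.26 and 4.65 with it, in weeks 1 to 4. In shCTRL they were 5.06, 4.46, 4.84 and 4.72 without and 4.80, 4.44, 4.62 and 4.33 with doxycycline. The +DOX library was the higher one in every week of the knockdown line and the lower one in every week of shCTRL, and the 4 -DOX and 4 +DOX libraries of shEIF2B1 met at 4.65. The response was 0.87 ± 0.32 (95% interval, n = 4 weeks, adjusted p = 0.00108), of which 0.65 was the change in the knockdown line itself. Its total RNA response was 0.02 ± 0.23. Week 2, at 0.49, stood below the other weeks at 0.97 to 1.05.

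ZNF524 and ZNF865, which had the next largest rises, lie next to each other on chromosome 19 (from 55600022 to 55603138 and from 55605405 to 55617269), with ZNF580 close by (from 55635016 to 55643469). The ZNF524 values in shEIF2B1 were 5.19, 5.14, 5.24 and 4.79 without and 5.51, 5.44, 5.36 and 5.30 with doxycycline, with no overlap. In shCTRL they went from 5.37, 5.21, 5.76 and 5.24 to 5.30, 5.04, 4.98 and 4.67, so that the response of 0.71 ± 0.35 (adjusted p = 0.00799) combined a change of 0.31 in the knockdown line with one of -0.40 in shCTRL. ZNF865 had a response of 0.66 ± 0.33 (adjusted p = 0.00896), with 5.29, 5.33, 5.21 and 4.91 without and 6.13, 5.53, 5.76 and 5.29 with doxycycline. These values overlapped through week 4, the lowest week in both. ZNF580 rose by 0.52 ± 0.28 (adjusted p = 0.0116). In RPFs the -DOX and +DOX libraries of shEIF2B1 did not overlap in 5.88% of members, beside 16% of all genes.

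Among the falls, ZNF701, a KRAB member with 7 fingers, went from 4.82, 5.20, 4.99 and 4.92 without to 4.17, 4.79, 4.31 and 4.65 with doxycycline in shEIF2B1. The groups did not overlap. In shCTRL the values were 4.51, 4.53, 4.18 and 4.85 without and 4.35, 5.16, 4.77 and 4.87 with it. The response was -0.77 ± 0.38 (adjusted p = 0.00765), with the limit that 35.2% of its windows also occur in other transcripts.

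ZNF622, which is known for work on late precursors of the large ribosomal subunit, fell without sharing any window. Its values in shEIF2B1 were 6.67, 6.86, 6.76 and 7.12 without and 6.02, 6.12, 6.10 and 5.99 with doxycycline, well apart. In shCTRL they were 6.14, 6.48, 6.47 and 6.85 without and 6.70, 6.05, 6.14 and 6.67 with it, and week 1 went up where weeks 2 to 4 went down. The response was -0.70 ± 0.41 (adjusted p = 0.02), and without week 4 the call was lost (adjusted p = 0.106). ZNF706 went from 6.52, 7.08, 7.31 and 7.40 to 6.15, 6.73, 6.42 and 6.96 in shEIF2B1, lower in every week although the groups overlap, with a response of -0.60 ± 0.32 (adjusted p = 0.0117).

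**Figure D2:**
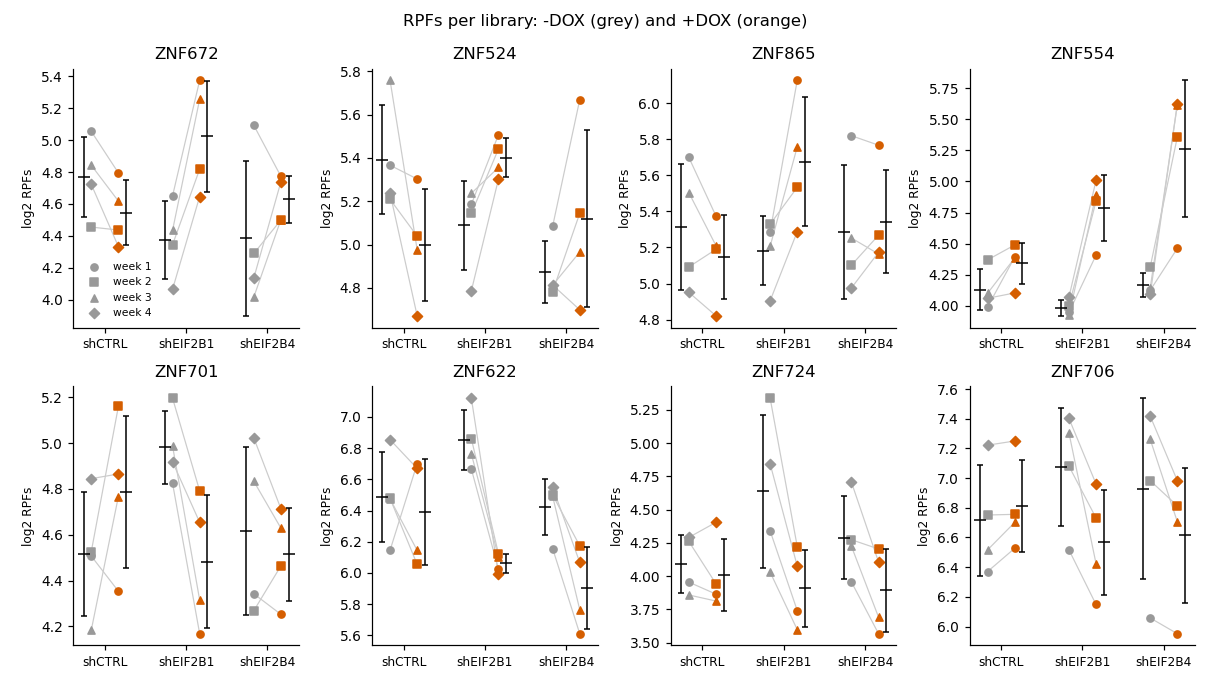
Log2 RPF value (vertical axis) of 8 members in each of the 24 RPF libraries, -DOX in grey and +DOX in orange for shCTRL, shEIF2B1 and shEIF2B4 (horizontal axis); symbols mark the week, grey lines join the libraries of 1 week, and black bars are the mean ± SD of 4 libraries. ZNF672, ZNF524, ZNF865 and ZNF554 moved up under shEIF2B1 and ZNF701, ZNF622, ZNF724 and ZNF706 down, with ZNF622 from 6.67 or more to 6.12 or less.

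The remaining rises were ZNF747 (0.65), ZNF554 (0.59), ZNF703 (0.50), ZNF764 (0.49), ZNF621 (0.43), ZNF646 (0.41) and ZNF689 (0.35). ZNF703 is a transcriptional corepressor of the NET family. The remaining falls were ZNF724 (-0.64), ZNF765 (-0.54), ZNF654 (-0.52), ZNF644 (-0.51), ZNF507 (-0.48), ZNF670 (-0.41) and ZNF823 (-0.39). ZNF644 is a partner of the histone methyltransferases G9a and GLP. In the shEIF2B1 line itself the change was not called for ZNF654 (-0.22), ZNF646 (0.23), ZNF621 (0.23), ZNF689 (-0.02) and ZNF703 (0.08). In shCTRL these changed by 0.30, -0.18, -0.20, -0.37 and -0.43. Calls for ZNF701, ZNF706, ZNF580, ZNF747, ZNF865, ZNF524 and ZNF672 held whichever week was left out. The count of calls was 12 without week 3 and 12 without week 4, beside 18.7% and 13.7% of all genes. With no week term in the fit it was 0, with 10 members at an unadjusted p below 0.05, beside 50 of all 11145 genes called. With the lowest 25% of genes left out, which removed 109 of the 136 members, 2 rose and 6 fell of the 27 that remained. In that setting 32% of all genes tested were called. Members removed included ZNF672, ZNF524, ZNF865, ZNF747, ZNF554 and ZNF701, whose mean RPF values lay below the cut of 5.62.

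The called members split by base composition. CDS GC content ran from 47.3% to 74.4% in the 11 that rose (median 68.8%) and from 37.5% to 53.4% in the 10 that fell (median 40.7%). Of 59 members under 45% GC, 0 rose and 9 fell, with a median response of -0.24. Of 30 members from 45% to 55%, 2 rose (ZNF554 and ZNF621) and 1 fell (ZNF622), with a median of 0.00. Of 45 members at 55% or more, 9 rose and 0 fell, with a median of 0.24. All genes of the same classes stood in the same order, with medians of -0.33, -0.08 and 0.20 and with 24 rises beside 1097 falls in the lowest class and 1097 rises beside 51 falls in the highest. The lowest class held at most 3006 genes with a CDS and the highest at most 4872. Members were thus called less often than all genes in both classes.

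Across the 134 members the response in RPFs to shEIF2B1 had a Pearson's r of 0.676 with CDS GC content. Over all 10848 genes with a CDS it was 0.634, and over 140 of the genes ZNF1 to ZNF499 it was 0.637. It was 0.616 within the 75 KRAB members and 0.698 within the 59 others. Taken week by week it was 0.473, 0.555, 0.587 and 0.399. It was 0.631 with the share of G and C at the third bases of the linkers (n = 88 members). After shEIF2B4 it was 0.545, with -0.044 in week 1 and 0.370, 0.604 and 0.424 in weeks 2 to 4. These values describe the fitted genes, which share libraries, and the shCTRL libraries are common to the responses of both lines. In shCTRL itself, doxycycline moved members the other way (r = -0.608), and the change within the knockdown line alone gave 0.429 for shEIF2B1 and 0.159 for shEIF2B4. With the straight-line trend on GC content removed from each library, 7 members were called after shEIF2B1, 6 higher and 1 lower (874 of 10848 genes, or 8.06%). Of the 21 members called before, 3 kept the call (ZNF622 at -0.72, ZNF554 at 0.63 and ZNF621 at 0.57). The largest responses were smaller and not called: 0.46 for ZNF672 (adjusted p = 0.103), 0.28 for ZNF524, 0.14 for ZNF865 and -0.48 for ZNF701 (adjusted p = 0.148). ZNF703 and ZNF580 had -0.02 and -0.05.

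**Figure D3:**
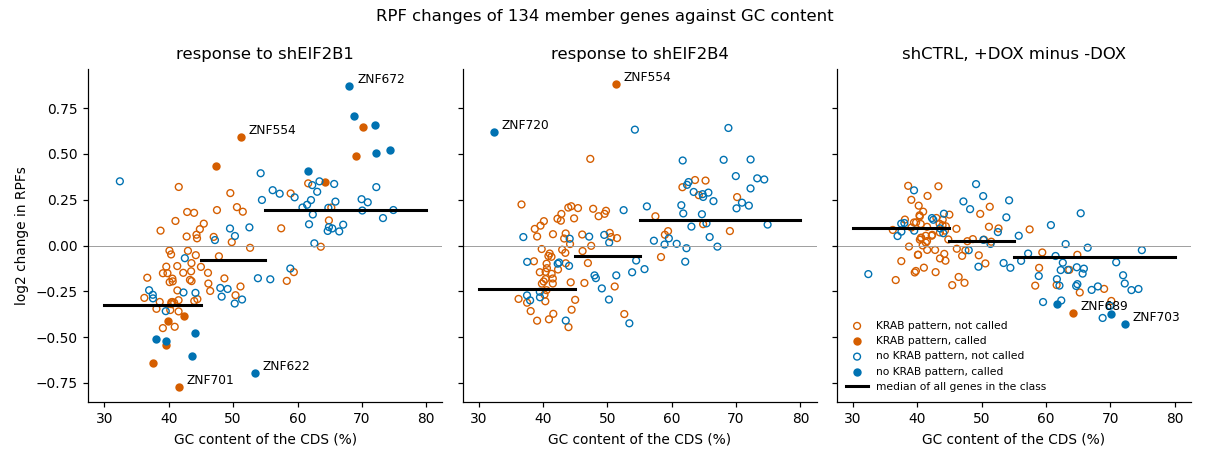
Log2 change in RPFs (vertical axis) of 134 members against GC content of the CDS in percent (horizontal axis), as the response to shEIF2B1 (left), the response to shEIF2B4 (middle) and +DOX minus -DOX in shCTRL (right); filled points were called, orange points carry a KRAB pattern, and black bars are the medians of all genes in 3 GC classes. Members slope up with GC after both knockdowns (r = 0.676 and 0.545) and down in shCTRL (r = -0.608).

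By class the median response in RPFs to shEIF2B1 was -0.14 for KRAB members, with 5 higher and 5 lower of 75, and 0.11 for those without KRAB, with 6 higher and 5 lower of 59. Both classes were called less often in each direction than all genes, of which 12% were higher and 15.3% lower. The 49 KRAB members on chromosome 19 had a median of -0.18, and the 15 on that chromosome without KRAB one of 0.19. The 11 members on chromosome 16 all had a response above 0, with a median of 0.35. Of these 11 members ZNF747, ZNF764, ZNF689 and ZNF646 were called, and the former 3 lie close together (ZNF747 from 30530367 to 30535347, ZNF764 from 30553764 to 30558498, ZNF689 from 30602558 to 30624012). ZNF720, also on chromosome 16, has the lowest GC content of the members (32.4%) and yet a response of 0.35 ± 0.44 (adjusted p = 0.248). Of the 10 members with the lowest GC content 9 were below 0 and ZNF720 above it after shEIF2B1, while the 10 with the highest GC content were above 0 after shEIF2B1 and after shEIF2B4. The 144 genes ZNF1 to ZNF499, the most similar genes of the tables, had 9 higher and 17 lower, again below the shares of all genes, and a median of -0.03.

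The comparison for eIF2Bδ gave fewer calls in RPFs. After shEIF2B4, 2 of 136 members were called, both higher (2.75% of all genes were called, 1.88% as higher). ZNF720 went from 4.53, 4.16, 4.60 and 4.40 without to 5.06, 4.72, 5.02 and 4.73 with doxycycline in shEIF2B4. These libraries did not overlap, as in 4.41% of members and 7.23% of all genes, and the response was 0.62 ± 0.31 (adjusted p = 0.0468). ZNF554 was the other, described below. At an unadjusted p below 0.05 there were 15 members. The median response was 0.04 over members, and by GC class it was -0.10, 0.03 and 0.22, beside -0.24, -0.06 and 0.14 over all genes. Without week 1, 13 members were called (14.5% of all genes), 10 higher and 3 lower. Without week 2, 3 or 4, as without the week term, the count was 0 (5 to 12 at an unadjusted p below 0.05, 0.323% to 0.691% of all genes called).

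The members that were called after shEIF2B1 were not shown to differ between the knockdowns. The difference of the responses was tested directly over all 24 libraries of each measure, and 0 members passed in RPFs, total RNA or log2 TE (limma; unadjusted p below 0.05 in 7, 16 and 3 members). The share of all genes called was 0.00897%, 0.1% and 0%. In RPFs the differences (shEIF2B1 minus shEIF2B4) ran from -0.40 for ZNF680 to 0.44 for ZNF865. For ZNF672 the difference was 0.41 ± 0.40 (adjusted p = 0.746) with a response to shEIF2B4 of 0.47 ± 0.43. For ZNF524 it was 0.07 ± 0.38, with a response to shEIF2B4 of 0.64 ± 0.43 (adjusted p = 0.138).

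In total RNA fewer members were called after shEIF2B1 and more after shEIF2B4 than in RPFs. After shEIF2B1, 2 members were called, both higher (3.47% of all 11947 genes were called, 2.34% as higher): ZNF865 at 0.41 ± 0.19 (adjusted p = 0.025) and ZNF554 at 0.49 ± 0.28 (adjusted p = 0.0754). After shEIF2B4, 7 were called higher and 2 lower (5.4% of all genes were called, 3.78% higher and 1.62% lower), with a median response of 0.05 over members. The rises were ZNF554 (0.77), ZNF664 (0.59), ZNF770 (0.59), ZNF641 (0.53), ZNF805 (0.42), ZNF674 (0.38) and ZNF707 (0.37), and the falls ZNF608 (-0.43) and ZNF511 (-0.29). The ZNF707 response combined a change of 0.15 in the shEIF2B4 line with one of -0.22 in shCTRL, and its shEIF2B4 libraries overlapped. Without week 4 the shEIF2B4 count was 2 and without week 2 it was 4, beside 1.82% and 2.03% of all genes. The shEIF2B1 count was 0 without week 1, 3 or 4 and without the week term (9 to 16 at an unadjusted p below 0.05, 0.929% to 1.74% of all genes called). It was 6 without week 2, beside 5.4% of all genes.

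ZNF664 (9 fingers, chromosome 12 from 123971845 to 124015439) had total RNA values in shEIF2B4 of 10.27, 10.32, 10.10 and 10.19 without and 10.75, 10.81, 10.70 and 10.95 with doxycycline. Its shCTRL values were 10.36, 10.30, 10.28 and 10.24 without and 10.27, 10.09, 10.34 and 10.45 with it. The knockdown libraries did not overlap, and the response was 0.59 ± 0.23 (adjusted p = 0.00488). ZNF770 (11 fingers, chromosome 15 from 34978341 to 34988287) went from 9.36, 9.40, 9.08 and 9.40 to 9.92, 9.89, 9.89 and 9.94, again with no overlap and a response of 0.59 ± 0.24 (adjusted p = 0.00588). In total RNA the -DOX and +DOX libraries of shEIF2B4 did not overlap in 28.7% of members, beside 26.6% of all genes. The calls for ZNF664 and ZNF770 held whichever week was left out.

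The RPFs of this pair did not pass the test. After shEIF2B4 the RPF response was 0.04 ± 0.38 for ZNF664 and 0.05 ± 0.47 for ZNF770, and log2 translational efficiency (log2 TE, the log2 RPF value minus the log2 total RNA value of the same lysate) had responses of -0.55 ± 0.44 (adjusted p = 0.223) and -0.54 ± 0.54 (adjusted p = 0.292), which did not pass the test. After shEIF2B1 the total RNA responses were 0.41 ± 0.28 (adjusted p = 0.132) and 0.25 ± 0.33 (adjusted p = 0.491). ZNF608 fell from 7.38, 7.33, 7.41 and 7.23 to 7.13, 7.13, 6.99 and 7.06 in shEIF2B4, with no overlap, while shCTRL had 7.39, 7.34, 7.40 and 7.29 without and 7.45, 7.58, 7.53 and 7.56 with doxycycline. Its response was -0.43 ± 0.20 (adjusted p = 0.0185), of which -0.26 was the change in the knockdown line. ZNF641 stood apart in its weeks, with a response of 0.92, 1.02, -0.04 and 0.24 in weeks 1 to 4.

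**Figure D4:**
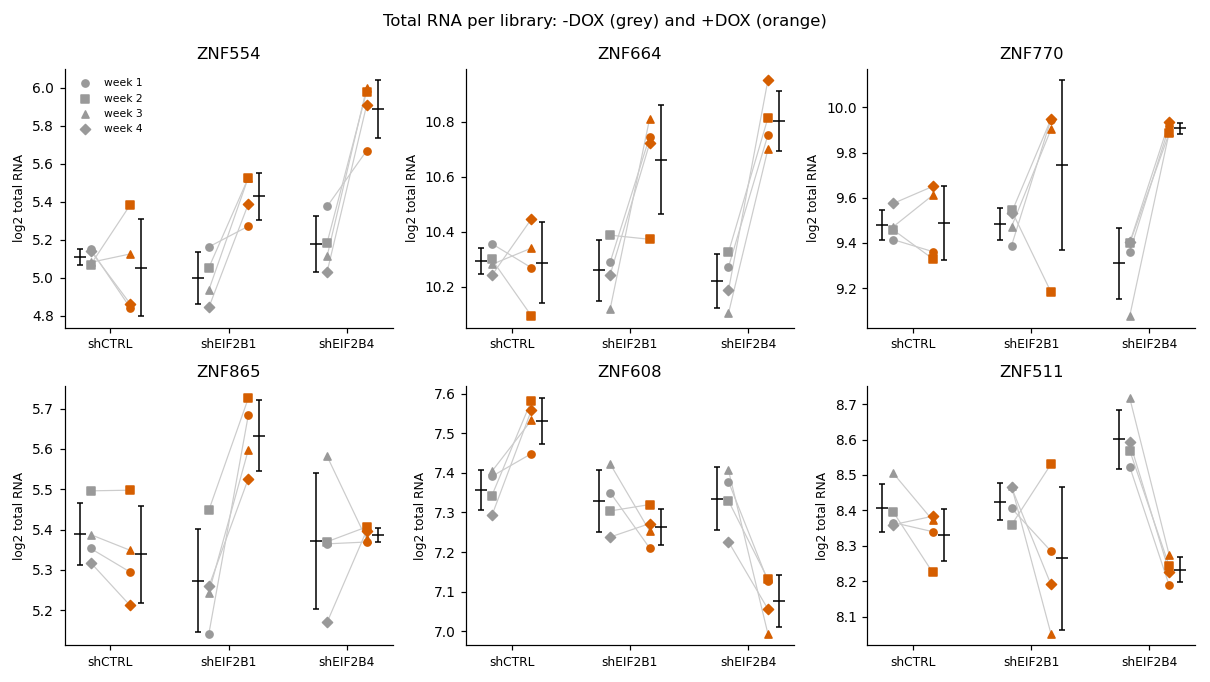
Log2 total RNA value (vertical axis) of 6 members in each of the 24 total RNA libraries, -DOX in grey and +DOX in orange for shCTRL, shEIF2B1 and shEIF2B4 (horizontal axis); symbols mark the week, grey lines join the libraries of 1 week, and black bars are the mean ± SD of 4 libraries. In shEIF2B4 the +DOX libraries of ZNF554, ZNF664 and ZNF770 all lie above the -DOX libraries, and those of ZNF608 and ZNF511 all lie below. Libraries stood apart in this way in 26.6% of all genes.

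ZNF554, a KRAB member with 7 fingers on chromosome 19 (from 2819874 to 2835773), was the one member called in RPFs and in total RNA after both knockdowns. Its RPF values in shEIF2B1 went from 3.95, 4.00, 3.92 and 4.07 to 4.41, 4.84, 4.89 and 5.01. In shEIF2B4 they went from 4.13, 4.31, 4.14 and 4.09 to 4.46, 5.36, 5.61 and 5.62. In shCTRL they were 3.99, 4.37, 4.10 and 4.06 without and 4.39, 4.49, 4.39 and 4.10 with doxycycline. Neither knockdown line overlapped between -DOX and +DOX, and shCTRL did. In RPFs 16% of all genes did not overlap in shEIF2B1, and 7.23% in shEIF2B4. The RPF responses were 0.59 ± 0.36 (adjusted p = 0.0232) and 0.88 ± 0.51 (adjusted p = 0.0831). Week 1 gave 0.06 and -0.06, and shCTRL itself was 0.40 higher with doxycycline in that week.

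Total RNA of ZNF554 went from 5.16, 5.05, 4.94 and 4.84 to 5.27, 5.53, 5.53 and 5.39 in shEIF2B1 and from 5.38, 5.19, 5.11 and 5.03 to 5.67, 5.98, 6.0 and 5.91 in shEIF2B4. In shCTRL it was between 5.07 and 5.15 without and between 4.84 and 5.38 with doxycycline. Again the libraries of each knockdown line did not overlap, as in 27.9% (shEIF2B1) and 26.6% (shEIF2B4) of all genes. The total RNA responses were 0.49 ± 0.28 and 0.77 ± 0.30 (adjusted p = 0.00449 for shEIF2B4), close to those in RPFs, and log2 TE had responses of 0.10 ± 0.37 and 0.12 ± 0.45. The differences between the knockdowns, -0.29 ± 0.45 in RPFs and -0.28 ± 0.28 in total RNA, did not pass the test. Each of these 4 calls was lost without some week. After shEIF2B1 the RPF call was lost without week 3 or 4 (adjusted p up to 0.123) and the total RNA call without week 1, 3 or 4 (adjusted p up to 0.435). After shEIF2B4 the total RNA call was lost without week 4 (adjusted p = 0.104), and the RPF call without week 2, 3 or 4 (adjusted p up to 0.539).

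In log2 TE 6 members were called higher and 2 lower after shEIF2B1, beside 7.1% of all 10836 genes, 2.97% higher and 4.13% lower. ZNF672 rose by 0.85 ± 0.34 (adjusted p = 0.0184), from -1.83, -1.93, -1.78 and -2.14 to -0.97, -1.63, -1.19 and -1.71 in shEIF2B1. These did not overlap, whereas shCTRL went from -1.19, -1.93, -1.33 and -1.57 to -1.55, -2.02, -1.75 and -1.91. The other rises were ZNF524 (0.56), ZNF747 (0.52), ZNF764 (0.51), ZNF696 (0.46) and ZNF703 (0.46), all with a CDS GC content from 68.1% to 72.3%. The falls were ZNF622 at -0.51 ± 0.33 (adjusted p = 0.0779) and ZNF740 at -0.47 ± 0.33 (adjusted p = 0.0992). In the shEIF2B1 line itself the change was called for ZNF672 (0.54) and ZNF622 (-0.60). It was not called for ZNF524 (0.15), ZNF747 (0.28), ZNF764 (0.30), ZNF696 (0.12), ZNF703 (0.23) and ZNF740 (-0.18). In shCTRL these changed by -0.41, -0.24, -0.21, -0.34, -0.23 and 0.29. ZNF622 went from -0.26, 0.00, 0.08 and 0.30 to -0.64, -0.55, -0.52 and -0.58, without overlap. In log2 TE the libraries of shEIF2B1 did not overlap in 1.47% of members, beside 4.34% of all genes. Of the 11 members that rose in RPFs 5 also rose in log2 TE, and these are 5 of the 6 that rose in log2 TE. The calls were lost altogether (0 of 136) without week 1, 3 or 4, without the week term and with the GC trend removed (7 to 19 at an unadjusted p below 0.05, 0% to 0.397% of all genes called). Without week 2, 12 were called, beside 12.6% of all genes.

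After shEIF2B4, 0 members were called in log2 TE by limma, with 22 at an unadjusted p below 0.05. By the adjusted p 0.0923% of all genes were called, a share not comparable with those 22. ZNF672 had the highest response, 0.59 ± 0.43 (adjusted p = 0.202), and ZNF569 the lowest, -0.74. The r with CDS GC content was 0.717 over the 134 members and 0.739 over all 10548 genes with a CDS. In week 1 it was 0.012. Without week 1, 19 members were called, 13 higher and 6 lower, beside 13.1% of all genes.

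**Figure D5:**
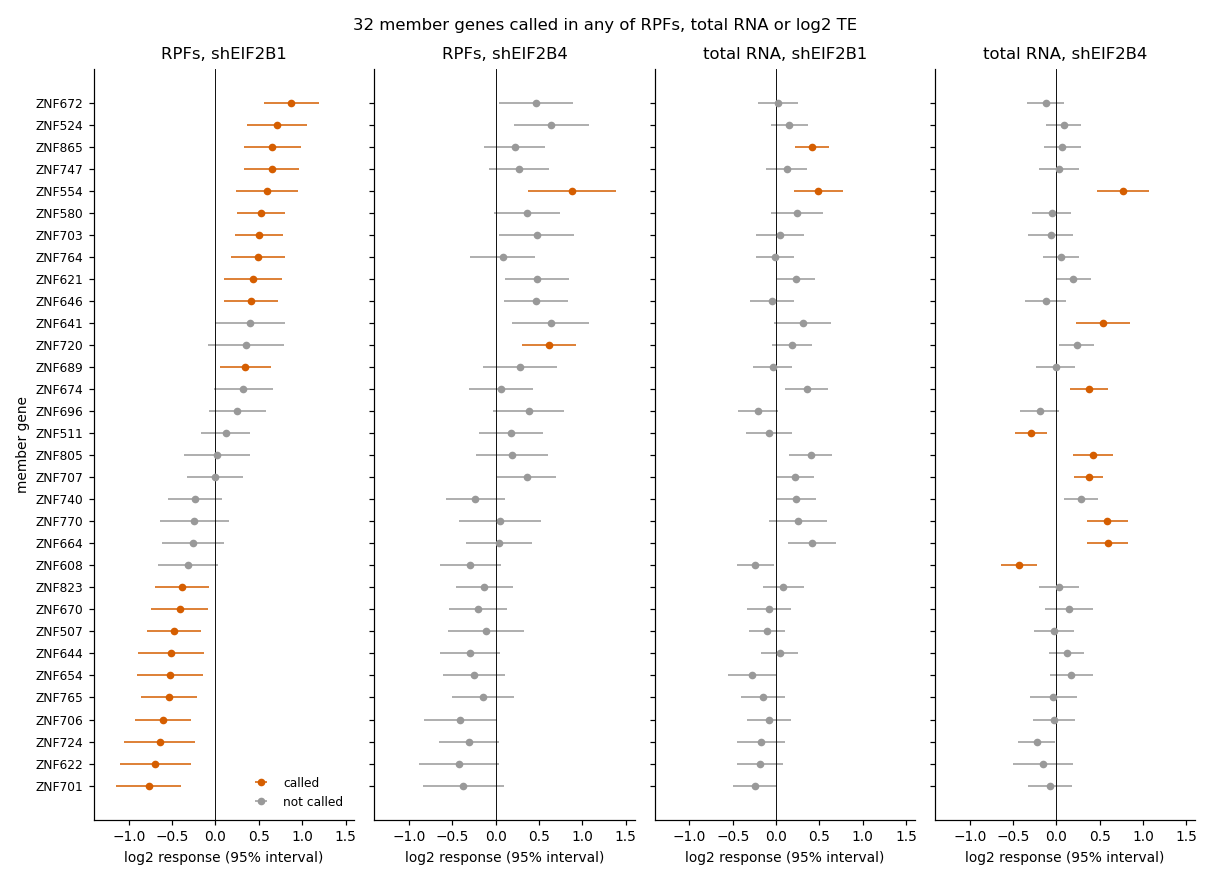
Log2 response with its 95% interval (horizontal axes) of the 32 members called in RPFs, total RNA or log2 TE after either knockdown (rows, ordered by the RPF response to shEIF2B1), in RPFs and in total RNA; orange points were called in that panel. ZNF672 at 0.87 and ZNF701 at -0.77 end the order in RPFs after shEIF2B1, and ZNF554 is orange in all 4 panels.

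Members with a known role outside KRAB repression were listed by that role. Of 26 such genes 21 were members, and ZNF598, ZNF521, ZNF655, ZNF711 and ZNF750 were not analysed here. In RPFs after shEIF2B1 1 of the 21 rose (ZNF703) and 4 fell (ZNF622, ZNF706, ZNF644 and ZNF507), beside 27.3% of all genes called, so the share was near that of all genes. The ribosome maturation factors parted: ZNF622 fell, and ZNF593 gave 0.08 ± 0.25. ZNF638, a nuclear RNA-binding protein, gave -0.36 ± 0.33 (adjusted p = 0.112), and ZNF830, a splicing factor, -0.29 ± 0.34. The ZMYND8 partners ZNF592, ZNF687 and ZNF532 gave 0.28 ± 0.37, 0.21 ± 0.33 and 0.05 ± 0.31. The other NET family member, ZNF503, gave 0.19 ± 0.37. ZNF746, known as a substrate of parkin, gave 0.21 ± 0.33. After shEIF2B4 0 of the 21 were called in RPFs by limma, with 2 at an unadjusted p below 0.05. In total RNA 0 of the 21 were called after shEIF2B1 (1 at an unadjusted p below 0.05) and 0 after shEIF2B4 (2).

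The partners of the KRAB members were listed as well, as 33 cofactors of TRIM28 repression and of heterochromatin. Of the 32 with RPF values 1 rose and 15 fell after shEIF2B1, beside 12% of all genes higher and 15.3% lower, with a median response of -0.39. All genes under 45% GC had a median of -0.33, but the GC content of the cofactors was not examined. Whether GC content bears on their falls was not tested. CBX3 and CBX5, which bind methylated histone H3, fell by 0.99 and 0.78 on the log2 scale, MPHOSPH8 of the HUSH complex by 0.84, the remodeller CHD4 by 0.71, ATRX by 0.61 and SETDB1 by 0.50. WIZ, itself a zinc finger protein of the G9a complex, rose by 0.52. TRIM28 gave -0.17 (adjusted p = 0.528). After shEIF2B4 0 of 32 were called (5 at an unadjusted p below 0.05), and in total RNA 0 of 33 after shEIF2B1 (9) and 0 after shEIF2B4 (3), all by limma. The KRAB members, with 5 rises and 5 falls of 75, had a median of -0.14 beside -0.39 for these cofactors. Of 14 partners in ribosome collision sensing 4 fell in RPFs after shEIF2B1 (RPS10, MAP3K20, NEMF and LTN1) and 0 rose, a share near the 27.3% of all genes called.

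In shCTRL, where doxycycline also induced the non-targeting shRNA, a few members moved, and this change enters every response with the opposite sign. In RPFs 4 members fell and 0 rose (9.85% of all genes were called, 4.62% as lower): ZNF703 by 0.43, ZNF503 by 0.37, ZNF689 by 0.37 and ZNF511 by 0.32 on the log2 scale. All 4 have a CDS GC content above 55%, and the median change in that class was -0.17, beside 0.08 in members under 45%. For ZNF689 the change in the shEIF2B1 line itself was -0.02, beside a called response of 0.35. ZNF703 likewise changed by 0.08 in the shEIF2B1 line. In total RNA 0 members were called in shCTRL by limma (11 at an unadjusted p below 0.05, 4.44% of all genes called), and in log2 TE 0 as well (22 at an unadjusted p below 0.05, 0.388% of all genes called). Without week 1 the counts in shCTRL were 25 in RPFs (31.6% of all genes) and 12 in total RNA (20.5%). Without week 2, 3 or 4, or the week term, the count in RPFs was 0 (6 to 16 at an unadjusted p below 0.05, 0% to 0.0359% of all genes called).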

How the data were processed

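RPFs and total cytoplasmic RNA were measured in the same 24 lysates of SW480. The deposited values are on a log2 scale: the authors removed duplicates, aligned reads with Bowtie2 to the protein-coding transcripts of GENCODE release 38, chose 1 transcript a gene, the most expressed, counted RPFs on its CDS, estimated total RNA with RSEM and deposited regularised log2 values from DESeq2. The submitters' processing notes name cutadapt 1.18, SAMtools 1.9 and R 4.3.1. Counts were not used here, so depth per library is unknown, and the transformation shrinks changes of low genes such as most members. Replicate 3 joins 2 sequencing runs of 1 library.

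Groups came from the sample labels. The members and lists were chosen with earlier results of these data known. Responses are the product term of shRNA and doxycycline in limma 3.58.1 (R 4.3.3, trended empirical Bayes) over the 16 libraries of a knockdown line and shCTRL. The difference between knockdowns used 24 libraries and doxycycline in shCTRL 8. Each fit ran on all genes of the table, two-sided, with Benjamini-Hochberg adjustment, and was tested on simulated data. The week was a block, as in the model stated with the study's supplementary differential expression data: the series' design text gives the replicates as experiments of separate weeks, and same-numbered libraries had a mean correlation of deviations of 0.559 in RPFs, 0.183 in total RNA and 0.538 in log2 TE. Log2 TE is the log2 RPF value minus the log2 total RNA value of a lysate. CDS sequences, coordinates and GC content came from GENCODE release 29 (GRCh38) by transcript identifier. Named genes were the 5 largest rises and 5 largest falls called in RPFs and in total RNA with the same direction in all 4 weeks, the 3 of each in log2 TE, the extremes of levels per length and members of the role list; other called members are named from the counts. Alternatives were no week block, centring, leaving out the lowest 25% of genes, all 24 libraries in 1 fit, no shCTRL correction, removal of the GC trend, a threshold of 0.05 and leaving out each week. Leaving out members with shared sequence and the GC correlation by week were added after the data were seen. Counts without the members with shared sequence are not reported here. Of those called in RPFs after shEIF2B1, 1 of 11 rises and 3 of 10 falls shared more than 20% of their windows. Figures were drawn with matplotlib 3.10.9.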

Additional observations from a re-analysis of the deposited data

Results flagged for a closer look

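Chance gives about 1 in every 20 sets of 4 values tested for a value far from the others. Among 48 such sets 1 stood out, which is no more than chance gives. It was the RPF response of ZNF672 to shEIF2B1 by week, in which week 2 was 0.49 and the other weeks lay between 0.97 and 1.05, so that the gap took 0.865 of the whole range, above Dixon's limit for 4 values. The call for ZNF672 held without week 2.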

How the results depend on the processing

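The counts of called members moved with most settings, and the causes were not tested unless stated. Values are given in the order shEIF2B1 in RPFs (21), shEIF2B4 in RPFs (2), shEIF2B1 in total RNA (2), shEIF2B4 in total RNA (9), shEIF2B1 in log2 TE (8) and shEIF2B4 in log2 TE (0). Without the replicate block they were 0, 0, 0, 7, 0 and 0, beside 0.449%, 0.323%, 1.6%, 2.92%, 0% and 0% of all genes. The doxycycline calls in shCTRL RPFs went from 4 to 0, so the paired fit decides most calls. Without the shCTRL correction the counts were 36, 9, 26, 40, 9 and 3, beside 49.4%, 23.8%, 34.4%, 34.4%, 17.1% and 6.21% of all genes. Leaving out the lowest 25% of genes gave 8, 0, 2, 9, 5 and 0, with fewer members tested by construction. Of all genes tested there, 32%, 2.5%, 3.4%, 6.24%, 6.14% and 0.295% were called. All 24 libraries in 1 fit gave 19, 4, 6, 8, 1 and 0, beside 17%, 4.4%, 4.96%, 4.49%, 0.406% and 0.351% of all genes. With the CDS GC trend removed and the replicate block kept the counts were 7, 2, 5, 7, 0 and 0. All genes called were then 8.06%, 1.94%, 5.12%, 5.28%, 0.209% and 0.0664%. In the main fit at an adjusted p below 0.05 the counts were 14, 1, 1, 6, 1 and 0. Leaving out 1 replicate gave 12 to 19, 0 to 13, 0 to 6, 2 to 8, 0 to 12 and 0 to 19. All genes called were then 13.7% to 24.4%, 0.386% to 14.5%, 0.929% to 5.4%, 1.82% to 4.15%, 0% to 12.6% and 0% to 13.1%. In shCTRL the counts were 0 to 25 (RPFs) and 0 to 12 (total RNA), beside 0.0269% to 31.6% and 0.0251% to 20.5% of all genes. The highest in RPFs after shEIF2B4, in log2 TE after shEIF2B4 and in shCTRL were those without replicate 1. Centring each library left 21, 2, 2, 10, 7 and 0, beside 27.7%, 2.69%, 3.47%, 5.38%, 7.01% and 0.0923% of all genes. The difference between knockdowns stayed at 0 calls under each setting run.

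Median responses moved as follows. With the lowest 25% left out they were -0.18 (from -0.02) in RPFs after shEIF2B1, 0.0693 (from 0.05) in total RNA after shEIF2B4, and 0.12 (from -0.02) and 0.13 (from -0.04) in log2 TE after shEIF2B1 and shEIF2B4. Without the shCTRL correction they were -0.0101 (from 0.04) in RPFs and 0.0213 in total RNA after shEIF2B4. Centring gave 0.0233 in total RNA after shEIF2B4, and GC removal 0.0249 in log2 TE after shEIF2B4. Leaving out 1 replicate gave from -0.00728 to 0.0336 in RPFs, from 0.0205 to 0.0604 for total RNA and from -0.0408 to 0.0103 for log2 TE after shEIF2B4. ZNF689 in RPFs after shEIF2B1 turned to -0.0227 without the shCTRL correction, and ZNF703 and ZNF580 to -0.0156 and -0.0528 with the GC trend removed. The 4 weeks, the unknown depth and the shrinkage of low values limit what could be detected, with a median 95% half-width over members of 0.35 in RPFs and 0.25 in total RNA after shEIF2B1.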
